A study of Rattus norvegicus with 12 samples.

Results

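The miR-15b, miR-16, miR-195 and miR-497 microRNAs (miRNAs) of the rat hippocampus were examined across all libraries of a small RNA sequencing study. Members were the mature names in the deposited counts with these 4 stems, both arms of each hairpin, without regard to their level or to how they moved. They numbered 8 of the 753 miRNAs listed. Tests were run on the 420 miRNAs that remained once those under 10 reads in at least 10 of the libraries were dropped, and 6 of these were members. They were rno-miR-15b-5p, rno-miR-15b-3p, rno-miR-16-5p, rno-miR-195-5p, rno-miR-195-3p and rno-miR-497-5p, where rno marks the rat and is left off from here on. The other members, miR-16-3p and miR-497-3p, were too rare. MiR-15b-3p was close to this limit and reached 10 reads in 4 libraries, those of vehicle rat 20 and ethanol rats 15, 16 and 23.

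The rats were Sprague Dawley males, adult at P70 to P80, and each gave 1 library of hippocampal small RNA. Vehicle was given to 4 rats and ethanol, at 4 g/kg by intraperitoneal injection, to 8 rats, and tissue was taken 3 h later from both groups. The sample labels call it right hippocampus and the study calls it dorsal hippocampus. The study lists more vehicle rats than these 4, and the rest are not analysed here. Each rat is called by its treatment and the number in its label. Library totals ranged from 2243412 to 4917929 estimated counts in vehicle rats and from 1960702 to 3598773 in ethanol rats, so that 3 counts were between 0.631 and 1.57 CPM (reads of a miRNA scaled to a common library size by the factors used for all levels). These limits cover counting error only. Each library is a mixture of cells, so fewer cells of a type and less RNA per cell cannot be told apart. Neuronal miRNAs were abundant, with a summed level of 5 markers between 30265 and 38459 CPM, and marker miRNAs of other tissue were found too. The summed level of 3 choroid plexus miRNAs (miR-204-5p, miR-211-5p and miR-448-3p) ranged from 28978 to 50267 CPM in vehicle rats and from 16516 to 70880 CPM in ethanol rats. That of 4 muscle miRNAs (miR-206-3p, miR-133b-3p, miR-133a-3p and miR-1-3p) ranged from 103 to 1310 CPM and from 84.7 to 1195 CPM. A further list held 4 endothelium and vessel wall miRNAs, miR-126a-3p, miR-126a-5p, miR-143-3p and miR-145-5p. Their summed level ranged from 38686 to 48381 CPM in vehicle rats and from 32603 to 67951 CPM in ethanol rats.

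A miRNA guides Argonaute proteins to messenger RNAs that pair with its seed, which is bases 2 to 8 from the 5′ end. MiRNAs with the same seed can share targets even when they come from different loci. The miR-15/16 family is known for repressing cyclins, cyclin-dependent kinases and the survival factor Bcl2, and so is studied in cell cycle exit and apoptosis. Its members are broadly expressed, also in brain. MiR-16 is abundant in red blood cells and is often used as a reference miRNA in blood. MiR-451, the comparison used here for blood, is made from an erythroid hairpin that Argonaute 2 cuts without Dicer.

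The mature sequences show what defines the family. They were taken from RefSeq (assembly GRCr8), where 8 of 8 members were found, and are printed 5′ to 3′ with the seed in capitals. The 5p arms of the 4 members come first, followed by miR-322-5p, the other rat miRNA with their seed in that annotation.
miR-15b-5p: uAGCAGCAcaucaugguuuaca
miR-16-5p: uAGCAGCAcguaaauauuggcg
miR-195-5p: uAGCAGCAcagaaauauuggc
miR-497-5p: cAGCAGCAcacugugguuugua
miR-322-5p: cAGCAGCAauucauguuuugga

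The seed AGCAGCA was held by 5 of the 693 mature names in the sequence table, and these were the 5 shown. Outside the seed the members differed. MiR-16-5p and miR-195-5p, which come from different chromosomes, differed at 2 of 21 positions, written as G10A and U11G with miR-16-5p first and positions counted from the 5′ end. MiR-15b-5p and miR-16-5p, which are neighbours in the genome, differed at 8 of 22 positions. MiR-195-5p and miR-497-5p, also neighbours, differed at 9 of 21. MiR-15b-5p was closer to miR-497-5p, with 6 of 22 positions different, than to its neighbour miR-16-5p. The deposited counts of miR-16-5p and miR-195-5p, which are also the most abundant members, were fractional in 12 of 12 libraries, against 3 libraries for miR-15b-5p and 1 for miR-497-5p. Whether reads were divided between like sequences was not tested. Over all 753 names, between 80.5% and 83.9% of the values of a library were whole.

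The 3p arms come from the other side of each hairpin and do not carry the family seed. They are shown because their seeds differ from each other.
miR-15b-3p: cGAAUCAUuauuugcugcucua
miR-16-3p: aCCAAUAUuauugugcugcuu
miR-195-3p: cCAAUAUUggcugugcugcucca
miR-497-3p: cCAAACCAcacugugguguuaga

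Each of these 4 seeds was held by no other name among the 693. The seeds of miR-16-3p and miR-195-3p share a run of letters that lies 1 position apart. In the same annotation, Mir15b and Mir16 are next to each other on chromosome 2 within Smc4, a gene for a condensin subunit, and Mir497 and Mir195 are next to each other on chromosome 10. Start and end positions are not given because the submitters' notes name the older build rn5.

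The level of the 5p arms was ordered in the same way in every rat. MiR-16-5p was by far the most abundant, followed by miR-195-5p, miR-15b-5p and miR-497-5p. Library totals were scaled by TMM, a trimmed mean of log ratios between libraries. Mature miRNAs are of nearly the same length, so that levels of different miRNAs were set side by side. Capture of a sequence during library making can still differ between miRNAs.

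MiR-16-5p averaged 6002 ± 486 CPM (SD, n = 12) and was 29th of 753 miRNAs. It was at 6193, 5372, 6713 and 5398 CPM in vehicle rats 9, 10, 19 and 20. In the 8 ethanol rats the lowest level was 5635, the median 5924 and the highest 6913 CPM. The groups overlapped, with 7 of the 8 ethanol rats inside the range of the vehicle rats and ethanol rat 23 above it. The highest level was 1.29-fold the lowest. Its coefficient of variation over the 12 rats was 8.10%, the 40th smallest of the 420 retained miRNAs, whose median was 16.6%. MiR-16-5p stood on 11340 to 31926 reads per library, and counting error adds more to this measure for miRNAs with fewer reads. The part of read depth in this rank was not tested.

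MiR-195-5p averaged 570 CPM, which was 10.5-fold below miR-16-5p. It was at 488, 606, 544 and 542 CPM in the vehicle rats, in the same order as above, and at 510, 588 and 653 CPM as lowest, median and highest in the ethanol rats. Ethanol rat 23 was again the only ethanol rat outside the vehicle range, and it was above it. The coefficient of variation was 7.93%, close to that of miR-16-5p.

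MiR-15b-5p, which is made from the hairpin beside miR-16, averaged 214 CPM. It was at 187, 204, 243 and 184 CPM in the vehicle rats and at 194.8, 215 and 261 CPM as lowest, median and highest in the ethanol rats. Here too 7 of 8 ethanol rats were inside the vehicle range, with ethanol rat 23 above. MiR-497-5p averaged 119.6 CPM. It was at 114, 129, 122 and 118 CPM in the vehicle rats and at 95.5, 122 and 140 CPM as lowest, median and highest in the ethanol rats. The ethanol rats spread to both sides of the vehicle rats, with 3 below, 2 above and 3 within their range.

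The 3p arms were at a far lower level. MiR-195-3p averaged 10.4 CPM and stood on 14 to 71 reads per library. It was at 14.5, 5.96, 8.83 and 15.1 CPM in the vehicle rats and at 6.89, 10.1 and 13.3 CPM as lowest, median and highest in the ethanol rats, all of which lay within the vehicle range. MiR-15b-3p averaged 2.96 CPM on 4 to 14 reads. It was at 2.31, 2.98, 1.47 and 2.77 CPM in the vehicle rats and at 1.17, 3.66 and 4.56 CPM as lowest, median and highest in the ethanol rats. For miR-15b-3p, 6 of 8 ethanol rats were above every vehicle rat and ethanol rat 24 was below every vehicle rat. Over all rats its log2 CPM had r = -0.45 (rho = -0.38) with the log2 library total. The part of library depth in its level was not tested. MiR-16-3p (2 to 13 reads) and miR-497-3p (3 to 10 reads) averaged 2.21 and 1.95 CPM.

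**Figure D1:**
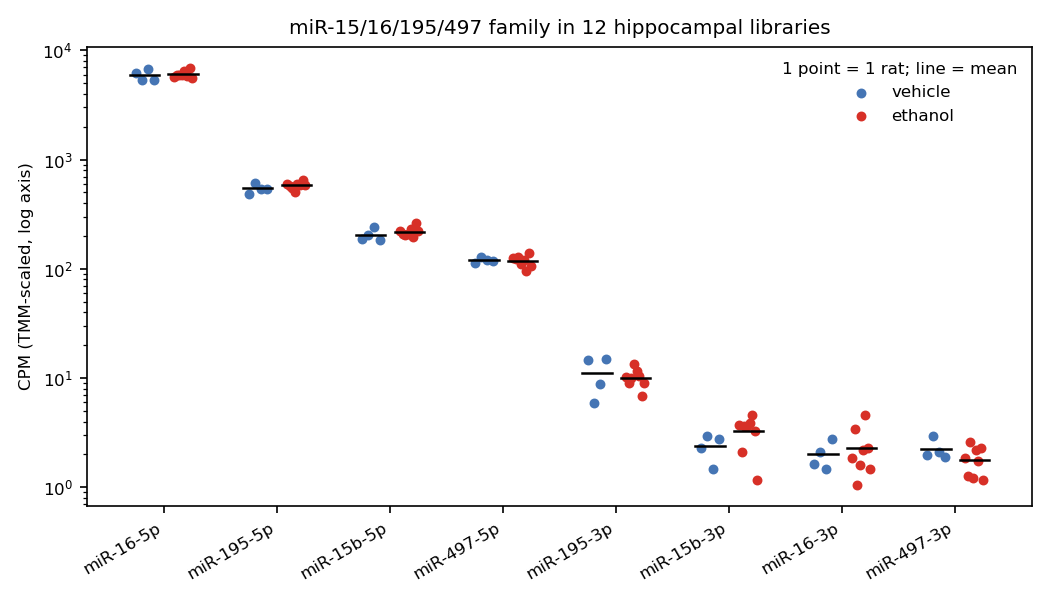
Level of the 8 family members in CPM (log axis) by group, where each point is 1 rat and the line is the group mean. The 5p arms lie in separate bands in the order miR-16-5p, miR-195-5p, miR-15b-5p and miR-497-5p, the vehicle and ethanol points overlap for every member, and the 3p arms of miR-15b, miR-16 and miR-497 lie near the limit set by 3 counts.

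The order miR-16-5p, miR-195-5p, miR-15b-5p, miR-497-5p, miR-195-3p, miR-15b-3p held in 12 of 12 libraries, and the ranges of neighbours in this order did not overlap. The mean of each was 10.5-fold, 2.66-fold, 1.79-fold, 11.5-fold and 3.52-fold the next. Below these the order was not resolved. MiR-15b-3p was above miR-16-3p in 7 of 12 libraries, and miR-16-3p was above miR-497-3p in 5 of 12, with overlapping ranges.

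Together the 8 members held between 0.650% and 0.777% of the counts of a library, with group means of 0.691% ± 0.0374 (SD, n = 4, vehicle) and 0.692% ± 0.0452 (SD, n = 8, ethanol). MiR-16-5p alone made up between 84.9% and 88.4% of the family's counts. The 3p arms made up between 0.182% and 0.360%. With miR-322-5p included, counts that carry the AGCAGCA seed were between 0.681% and 0.814% of a library, and miR-322-5p, made from an X-linked cluster, held between 4.30% and 6.06% of them. MiR-322-5p averaged 364 CPM, which places it between miR-195-5p and miR-15b-5p.

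The arm ratio asks which side of a hairpin accumulated, and needs no scaling between libraries. The 5p arm dominated at all 4 hairpins, but not to the same degree. Over the reads of all 12 libraries there were 2732 reads of miR-16-5p per read of miR-16-3p, against 75.8 for miR-15b, 61.5 for miR-497 and 53.4 for miR-195. The lowest ratio for miR-16 in any rat was 1289, and the highest ratio for any other hairpin was 188. The neighbours miR-15b and miR-16 thus had arm ratios that did not overlap, while those of the neighbours miR-195 and miR-497 did. Each ratio takes both arms to come from the same hairpin. Whether reads of miR-16-5p also came from a further locus was not tested.

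The arm ratios of miR-15b, miR-195 and miR-497 were compared between groups. The difference in the mean log2 ratio, ethanol minus vehicle, was -0.30 for miR-15b, 0.16 for miR-195 and 0.33 for miR-497. A two-sided exact permutation test, over every way to split the 12 rats into 4 and 8, gave p = 0.489, 0.592 and 0.160 (n = 4 and 8), and p = 0.592, 0.592 and 0.434 after Benjamini-Hochberg adjustment over the 5 ratios tested. For miR-16 the rarer arm fell to 2 reads, so no test was run. Counting error alone predicts a coefficient of variation of 36.5% for the miR-15b ratio and 44.6% for the miR-497 ratio, against 53.2% and 26.7% measured. For miR-195 the measured value was 35.2% and counting error predicts 19.4%.

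The miR-195 ratio varied most among vehicle rats. Vehicle rat 10 had 1423 reads of miR-195-5p and 14 of miR-195-3p, whereas vehicle rat 9 had 1479 and 44. Their ratios were 102 and 33.6, which are the highest and the lowest of the 12 rats. Across rats miR-195-5p and miR-195-3p ran in opposite directions, with Pearson r = -0.74 and Spearman rho = -0.64 (12 rats, log2 CPM, a description over libraries that share a scaling). With values centred on the group means r was -0.77. The 2 retained muscle miRNAs had a median r of 0.56 with miR-195-3p and -0.59 with miR-195-5p. The part of muscle RNA in the opposite course of the arms was not tested.

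**Figure D2:**
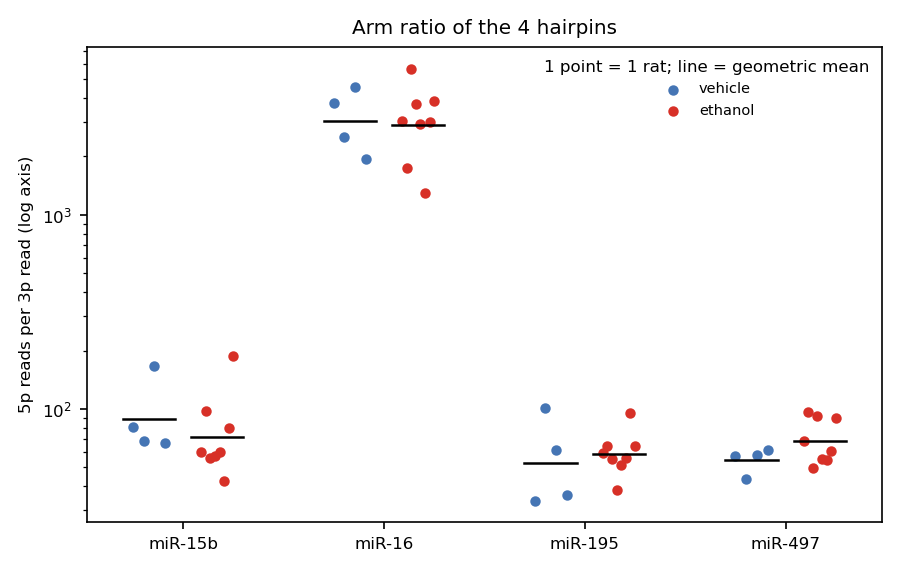
Reads of the 5p arm per read of the 3p arm (log axis) for the 4 hairpins, where each point is 1 rat and the line is the geometric mean of the group. The miR-16 ratios are 1289 or higher in all rats, and those of the other hairpins lie between 33.6 and 188.

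Neighbouring hairpins can be carried on 1 primary transcript, so the 5p arms of each pair were set against each other. The ratio of miR-16-5p to miR-15b-5p was between 25.4 and 33.1 in the 12 rats, with a median of 28.2. Its log2 difference of ethanol minus vehicle was -0.07 (two-sided exact permutation p = 0.347, adjusted p = 0.579). The ratio of miR-195-5p to miR-497-5p was between 4.26 and 6.16, with a median of 4.67, and its log2 difference was 0.13 (two-sided exact permutation p = 0.174, adjusted p = 0.434). The coefficient of variation of the miR-16-5p to miR-15b-5p ratio was 7.69%, where counting error predicts 4.16%, against 8.10% and 10.6% for the levels of its arms. That of the miR-195-5p to miR-497-5p ratio was 11.3%, where counting error predicts 5.99%, which was above the 7.93% and 9.90% of its arms.

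Ethanol was compared with vehicle for each retained member with edgeR's quasi-likelihood test on the whole table, and p-values were adjusted by Benjamini-Hochberg across all 420. No member passed the test. The 5p arms differed between the groups by less than the spread between rats, and their intervals were narrow. The adjusted p was under 0.05 for 0 of 6 members and for 0 of 420 miRNAs (0.0%) by edgeR, and for 1 of the retained miRNAs, not a member, by DESeq2. The raw edgeR p was under 0.05 for 0 of 6 members and for 17 of 420 miRNAs (4.05%). No member had groups that did not overlap, which was so for 1 of 420 miRNAs (0.238%). Each library is 1 rat, so these p-values rest on the spread between animals.

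For miR-16-5p the means were 5919 ± 652 CPM (SD, n = 4, vehicle) and 6043 ± 428 CPM (SD, n = 8, ethanol), and means are given in this order below. The log2 fold change of ethanol over vehicle was 0.03 (SE 0.08, edgeR adjusted p = 0.987), and its 95% interval of -0.14 to 0.20 spans a fold of 0.910 to 1.14. Its sign changed with the choice of scaling, being -0.0030 when libraries were scaled by their totals alone.

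For miR-195-5p the means were 545 ± 47.9 and 583 ± 41.1 CPM, and the log2 fold change was 0.10 (SE 0.08, 95% interval -0.07 to 0.26, edgeR adjusted p = 0.971). For miR-15b-5p the means were 205 ± 27.2 and 219 ± 20.3 CPM, and the log2 fold change was 0.09 (SE 0.10, 95% interval -0.12 to 0.31, edgeR adjusted p = 0.971). MiR-497-5p had means of 121 ± 6.53 and 119 ± 14.2 CPM and a log2 fold change of -0.02 (SE 0.10, 95% interval -0.24 to 0.20, edgeR adjusted p = 0.997). The 4 arms that carry the shared seed thus had estimates between -0.02 and 0.10, and each interval contained 0.

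The 3p arms had wider intervals. MiR-195-3p had means of 11.1 ± 4.45 and 10.1 ± 1.91 CPM and a log2 fold change of -0.17 (SE 0.23, 95% interval -0.66 to 0.33, edgeR adjusted p = 0.971). MiR-15b-3p had means of 2.38 ± 0.668 and 3.25 ± 1.08 CPM and the largest estimate of the 6 members, 0.47 (SE 0.33, 95% interval -0.24 to 1.17, edgeR adjusted p = 0.971). The interval of miR-15b-3p, which stood on 4 to 14 reads, reaches a 2.25-fold rise.

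The same two-sided exact permutation test on mean log2 CPM (n = 4 and 8) gave p between 0.186, for miR-195-5p, and 0.796, for miR-195-3p. Of the 6 members, 4 had a positive estimate and 2 a negative one. Over all 420 miRNAs 193 (46.0%) had a positive estimate. The median log2 fold change was 0.06 for the members and -0.02 for all retained miRNAs. The median size of the log2 fold change, whatever its sign, was 0.10 for both.

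**Figure D3:**
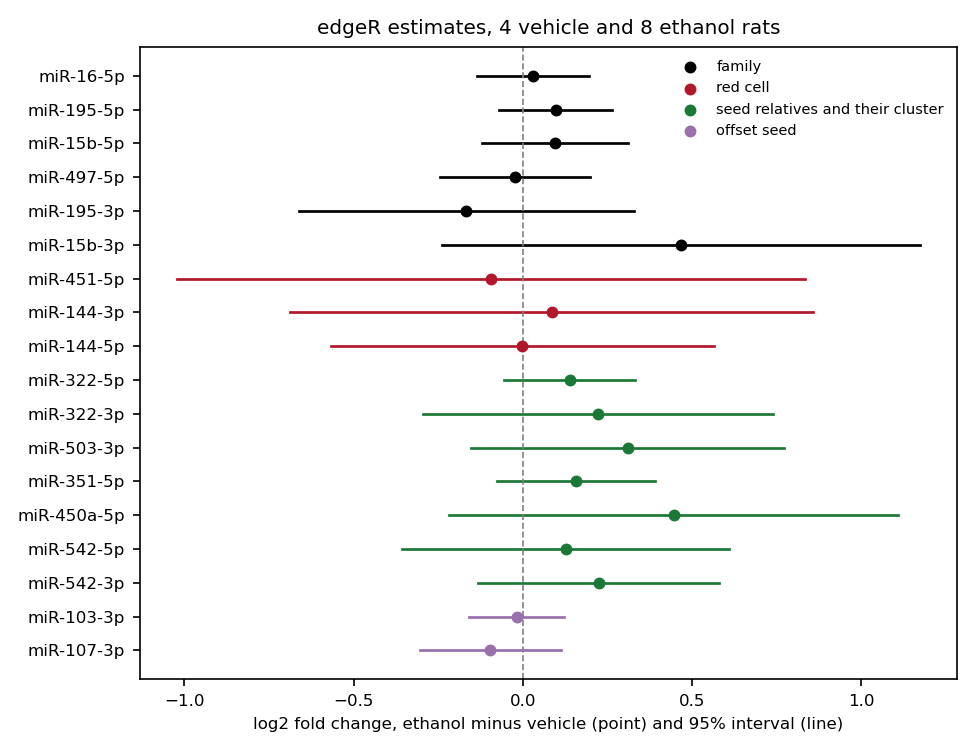
Log2 fold change of ethanol minus vehicle from edgeR (point) with its 95% interval (line) for the 6 retained members and for the retained members of 3 other lists. The intervals of all miRNAs shown contain 0, and those of the 3 red-cell miRNAs are wider than those of the family's 5p arms.

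Other miRNAs of related sequence were read beside the family. MiR-503-5p, whose seed differs from that of the family in its last base, is made from the same X-linked cluster as miR-322, and had between 0 and 6 reads. MiR-103-3p and miR-107-3p, made from introns of pantothenate kinase genes, hold the same run of letters one base nearer to their 5′ end.
miR-503-5p: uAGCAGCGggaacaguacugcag
miR-103-3p: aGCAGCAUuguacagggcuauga
miR-107-3p: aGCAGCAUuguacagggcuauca

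Of 14 names listed for the X-linked cluster and further seed relatives (both arms of miR-15a, miR-424, miR-322, miR-503, miR-351, miR-450a and miR-542), 10 were in the counts and 7 were retained. No arm of miR-15a or miR-424 was in the counts, so the 7 are all arms of the X-linked cluster. Hairpins of a cluster can share a transcript, so these are not independent results. Of the 7, miR-322-5p alone carries the family seed. All 7 had a positive estimate, against 46.0% of all retained miRNAs, with a median of 0.22 on the log2 scale. By edgeR 0 of 7 had a raw or adjusted p under 0.05. MiR-322-5p averaged 342 CPM with vehicle and 376 CPM with ethanol. Its log2 fold change was 0.14 (SE 0.09, 95% interval -0.06 to 0.33, edgeR adjusted p = 0.971). MiR-103-3p had a log2 fold change of -0.02 and miR-107-3p of -0.10, and neither had an edgeR raw p under 0.05. None of the 7 tested miRNAs shown here with AGCAGCA at either position passed the test.

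Because miR-16 is plentiful in red blood cells, its level across rats was set against that of miR-451-5p. The red-cell miRNA varied far more than the family's 5p arms. MiR-451-5p was at 116, 80.9, 123 and 164 CPM in vehicle rats 9, 10, 19 and 20. In ethanol rats 3, 4, 7, 8, 15, 16, 23 and 24 it was at 205, 144, 47.7, 132, 33.0, 169, 50.5 and 127 CPM. Ethanol rats 7, 15 and 23 were below every vehicle rat, and the whole range was 6.23-fold against 1.29-fold for miR-16-5p. Its log2 fold change was -0.09 (SE 0.43, 95% interval -1.02 to 0.83, edgeR adjusted p = 0.997).

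Rats with more miR-451-5p did not have more miR-16-5p. Over the 12 rats Pearson r of log2 CPM was -0.48 (p = 0.117 by 100000 permutations, adjusted p = 0.475 over the 419 miRNAs compared) and Spearman rho was -0.49 (permutation p = 0.110). In the 8 ethanol rats r was -0.73 (exact permutation p = 0.0373, adjusted p = 0.426) and rho was -0.62 (exact permutation p = 0.115). The 4 vehicle rats are too few for a correlation of their own. With values centred on the group means r was -0.46. Without ethanol rats 15 and 7, which lay farthest from the median of miR-451-5p, r was -0.50 (permutation p = 0.132, 10 rats).

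The other 5p arms had negative coefficients too. Pearson r with miR-451-5p was -0.51 for miR-497-5p (permutation p = 0.0929, adjusted p = 0.464, rho = -0.43), -0.42 for miR-15b-5p (permutation p = 0.169, adjusted p = 0.534, rho = -0.29) and -0.30 for miR-195-5p (permutation p = 0.345, adjusted p = 0.653, rho = -0.18). For the 3p arms it was -0.23 for miR-15b-3p and 0.28 for miR-195-3p. So r was below 0 for 5 of 6 members, against 229 of 419 miRNAs (54.7%). Values of this size were also found outside the family. The oligodendrocyte markers miR-338-3p, miR-219a-5p and miR-219a-2-3p had r of -0.57, -0.50 and -0.48 with miR-451-5p. The raw p was under 0.05 for 0 of 6 members and 61 of 419 miRNAs (14.6%), and with a negative r it was so for 17 of 419 (4.06%). The adjusted p was under 0.05 for 0 of 6 members and for 6 of 419 miRNAs (1.43%), all with a positive r.

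Of the 6 miRNAs with an adjusted p under 0.05, 3 belong to the marker lists, and they come from the miR-144 hairpin next to miR-451 and from the leukocyte list. MiR-144-3p had r = 0.95 (permutation adjusted p = 0.0021) and miR-144-5p had r = 0.86 (permutation adjusted p = 0.045). The leukocyte and microglia marker miR-142-5p had r = 0.90 (permutation adjusted p = 0.0021), and the endothelial marker miR-126a-3p had r = 0.78 (permutation adjusted p = 0.106, not past the threshold). MiR-451-5p thus moved with miR-142-5p as well as with its neighbours. The rest of the leukocyte and microglia list did not pass the threshold. There miR-142-3p, miR-223-3p and miR-150-5p had r = 0.67, 0.73 and 0.46 (permutation adjusted p = 0.272, 0.179 and 0.486). With miR-16-5p, miR-144-3p had r = -0.44 and miR-144-5p had r = -0.34. Entering the log2 CPM of miR-451-5p as a covariate gave an adjusted p under 0.05 for 0 of 420 miRNAs in edgeR.

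**Figure D4:**
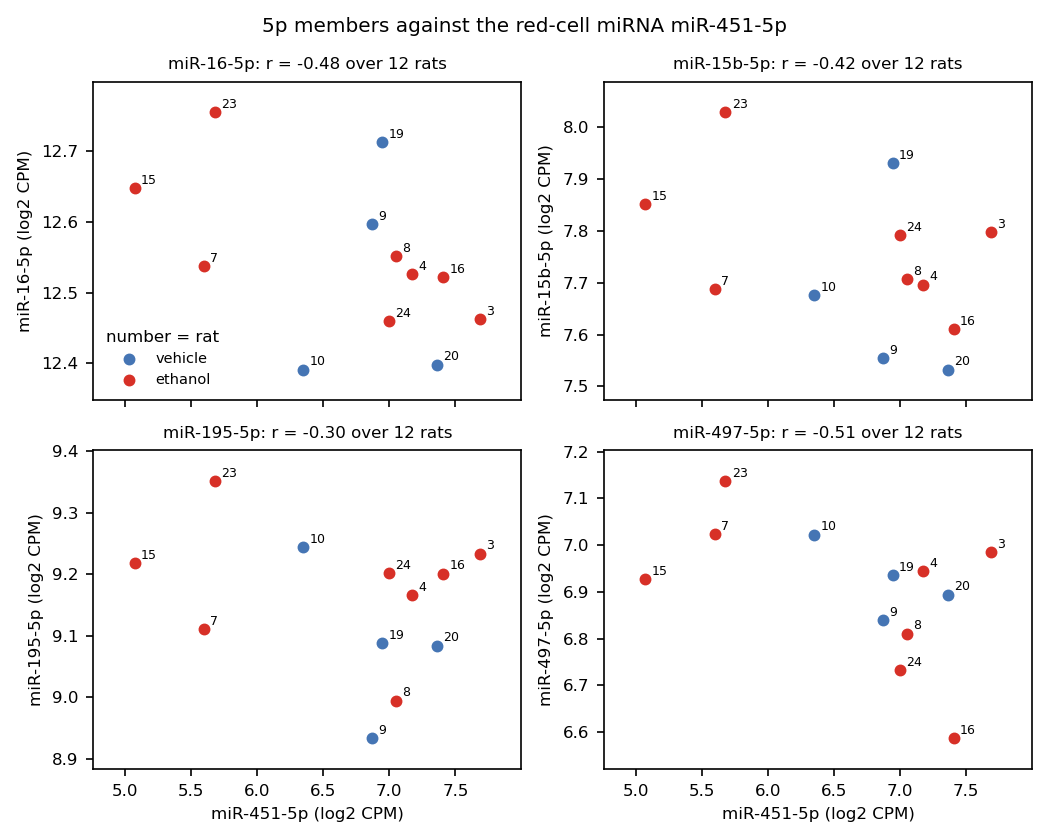
Log2 CPM of the 4 members' 5p arms (vertical axes, each on its own scale) against log2 CPM of miR-451-5p (horizontal axes), where each point is 1 rat labelled with its number. Of the 3 ethanol rats lowest in miR-451-5p, rats 15 and 23 are among the 3 rats highest in miR-16-5p and rat 7 is near its median, and r over the 12 rats is between -0.51 and -0.30.

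Levels of the members were also set against each other, as a description over 12 libraries that share a scaling. MiR-15b-5p and miR-16-5p, from adjacent hairpins, had r = 0.69 (rho = 0.59). MiR-195-5p and miR-497-5p, from the other pair of neighbours, had r = 0.35 (rho = 0.49). MiR-15b-5p also had r = 0.58 with miR-195-5p and r = 0.48 with miR-497-5p. MiR-16-5p and miR-195-5p, the most alike in sequence, had r = 0.07 (rho = -0.12).

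The 5 retained miRNAs outside the family whose log2 CPM was most like that of miR-16-5p were, of 414 compared over 12 libraries, miR-338-5p (r = 0.93), miR-181a-1-3p (r = 0.90), miR-338-3p (r = 0.88), miR-151-3p (r = 0.84) and miR-151-5p (r = 0.81). MiR-338-5p and miR-338-3p are arms of the same hairpin, as are miR-151-3p and miR-151-5p, so these are not 5 independent results. The median r over the 414 was -0.04. Centred on the group means the values were between 0.82 and 0.93, and with libraries scaled by their totals alone they were between 0.73 and 0.89. In the 8 ethanol rats alone they were between 0.79 and 0.89. MiR-338-3p, which is enriched in oligodendrocytes and promotes their differentiation, ranged from 8298 CPM in vehicle rat 20 to 17119 CPM in ethanol rat 23. Rats 20 and 23 were also near the bottom and at the top of the range of miR-16-5p.

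Marker lists for 7 tissue components were read in the same way. The oligodendrocyte list moved most closely with miR-16-5p. Its 3 members, miR-338-3p, miR-219a-2-3p and miR-219a-5p, had r = 0.88, 0.80 and 0.77 with miR-16-5p. MiR-338-3p is also among the miRNAs named above as most like miR-16-5p, so its value is the same result. In the ethanol rats alone these values were lower, at 0.79, 0.65 and 0.58. With libraries scaled by their totals alone they were 0.84, 0.72 and 0.74. The list had a median r of 0.70 with miR-15b-5p, 0.49 with miR-497-5p and 0.03 with miR-195-5p. The summed level of the list was between 9332 and 17658 CPM in vehicle rats and between 9827 and 19011 CPM in ethanol rats, and all 3 had a positive ethanol estimate with 0 raw p under 0.05 by edgeR. In contrast, the median r of miR-16-5p was -0.44 with the red-cell list, -0.39 with the leukocyte and microglia list, -0.44 with the endothelium and vessel wall list, -0.06 with the choroid plexus list and -0.04 with the neuron list. MiR-195-5p had its most negative medians with the muscle list, at -0.59, and the choroid plexus list, at -0.55. The part of these cell types in the level of the family was not tested.

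The summed red-cell list was between 133 and 229 CPM in vehicle rats and between 61.2 and 309 CPM in ethanol rats, from 3 of 4 names, and miR-486 was not analysed here. Of these 3 miRNAs 1 had a positive and 2 a negative ethanol estimate, and 0 had a raw p under 0.05 by edgeR. All 5 neuron markers had a negative estimate with a median of -0.08 on the log2 scale, and 0 had a raw p under 0.05. The leukocyte and microglia list had 2 positive and 2 negative estimates of 4, and the endothelium and vessel wall list likewise. The muscle list was the exception in size, with a median of -1.81 for its 2 retained miRNAs, of which miR-133a-3p had an edgeR raw p of 0.0166 and an adjusted p of 0.971. For miR-133a-3p the groups overlapped, with 6 of 8 ethanol rats inside the vehicle range of 43.4 to 704 CPM. The two-sided exact permutation test on its mean log2 CPM gave p = 0.0545.

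**Figure D5:**
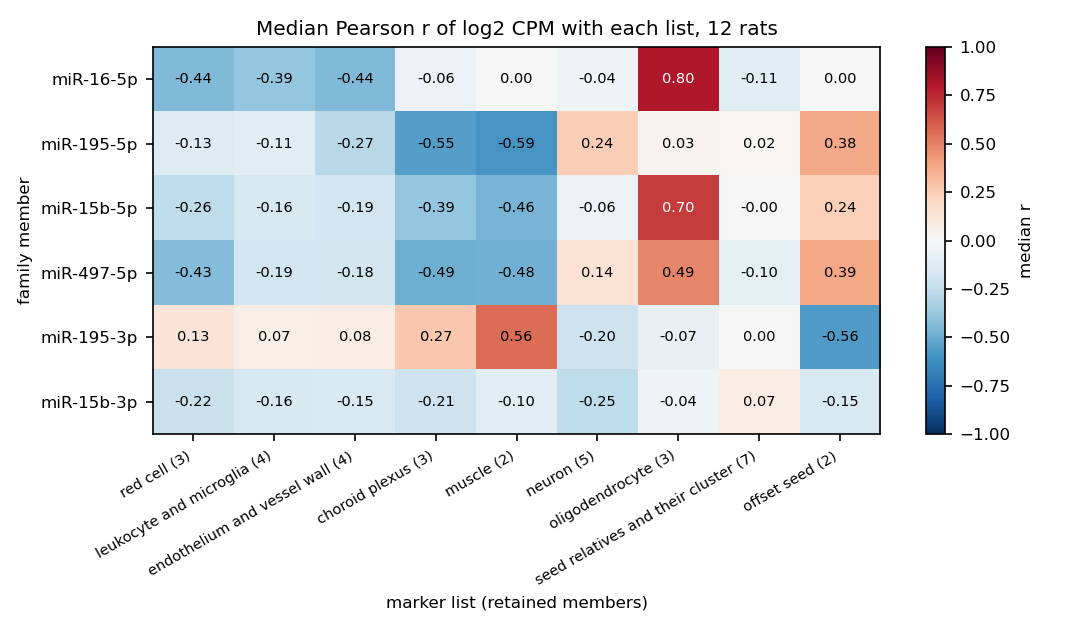
Median Pearson r of log2 CPM over 12 rats between each retained member (vertical) and the retained miRNAs of each list (horizontal, number retained in brackets), with colour from -1 to 1. The highest medians are 0.80 and 0.70, for the oligodendrocyte list with miR-16-5p and miR-15b-5p.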

How the data were processed

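The authors deposited expected counts (estimated read counts) of mature miRNAs for each rat, neither scaled nor filtered. The submitters' processing notes name cutadapt, Partek and the build rn5; versions and settings are not given in the sources used here. Libraries were made from 1 µg of RNA, gel-selected at 20 to 30 nt and read for 37 cycles in sets of 8. The labels do not say which library was in which set, so within-set values could not be given.

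Counts were rounded to whole numbers. Dropping miRNAs under 10 reads in at least 10 libraries kept at least 99.987% of each library's counts. Analyses used R 4.3.3, edgeR 4.0.16 (TMM, quasi-likelihood test, no covariates), limma 3.58.1 and DESeq2 1.42.0. Log2 CPM used a prior count of 2. Two-sided exact permutation tests over all splits into 4 and 8 were used for single values, and correlations by 100000 permutations or all 40320 orders.

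The named miRNAs were the members, miR-451-5p, the lists described in the text and the 5 miRNAs most like miR-16-5p. MiR-133a-3p was named after its values were seen as a member of the muscle list. Members and lists were chosen with earlier results of these data known. Mature sequences from RefSeq matched 688 of 753 names. Alternatives covered scaling, filters, tests, the miR-451-5p covariate and each rat left out.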

Additional observations from a re-analysis of the deposited data

How the results depend on the processing

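Over 137 estimates for the members under alternatives, 0 gave an adjusted p under 0.05 (lowest 0.774). The sign changed in 10, and the cause was not tested. For miR-16-5p the log2 fold change was -0.0030 with library totals alone, -0.014 without vehicle rat 10 and -9.4e-05 without ethanol rat 23. For miR-497-5p it was 0.0085 with at least 10 reads required in at least 10 libraries (a filter that leaves miR-15b-3p untested), 0.012 and 0.0041 without vehicle rats 10 and 20, and 0.0012, 0.018 and 0.0010 without ethanol rats 3, 16 and 24. For miR-195-3p it was 0.066 without vehicle rat 20, against -0.17 with all rats. Leaving out 1 rat at a time gave ranges of -0.014 to 0.096 for miR-16-5p, 0.056 to 0.15 for miR-195-5p, 0.055 to 0.19 for miR-15b-5p, -0.059 to 0.018 for miR-497-5p, -0.34 to 0.066 for miR-195-3p and 0.26 to 0.62 for miR-15b-3p, whose raw edgeR p was 0.0372 without ethanol rat 24. DESeq2 called 1 miRNA where edgeR called 0; with 1 rat left out edgeR called 0 to 3 (3 without ethanol rat 16). The count with a raw p under 0.05 was 17, 12 to 23 under other alternatives and 5 to 24 with 1 rat left out (5 and 9 without vehicle rats 20 and 9, 10 and 11 without ethanol rats 4 and 8). The log2 arm ratio of ethanol minus vehicle ranged from -0.50 to 0.0024 for miR-15b (0.0024 without vehicle rat 19), from -0.050 to 0.48 for miR-195 (-0.050 and -0.018 without vehicle rats 9 and 20) and from 0.22 to 0.39 for miR-497. With 1 rat left out, Pearson r of miR-16-5p with miR-451-5p ranged from -0.59 to -0.34, and in the ethanol rats alone it was -0.73. Pearson r of miR-15b-3p with miR-451-5p was 0.069 without ethanol rats 15 and 7. No paired analysis was possible because the groups share no replicate numbers. The 4 to 14 reads of miR-15b-3p per library, and 4 vehicle rats, limit what could be detected.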
